A study of Homo sapiens with 6 samples.

Results

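Genes of the transforming growth factor beta (TGF-beta) and bone morphogenetic protein (BMP) family were examined in RNA-seq libraries of cells labelled LNCaP, a human prostate cancer line, in which PDGFC had been knocked down. The members were a list of 56 genes matched by symbol and Ensembl identifier, of 60664 genes in the deposited table, and they were read in 9 roles that cover ligands, a ligand-releasing protease, receptors, SMADs, secreted antagonists, latent TGF-beta binding proteins and the ID genes. The knockdown cells carried a stable short hairpin RNA against PDGFC (shPDGFC, 3 libraries) and the control cells the hairpin labelled shNC (3 libraries). Both groups derive, per the series' design text, from an enzalutamide-resistant derivative of LNCaP, named LNCaPE in the sample titles, and both were grown in DMEM with 10% fetal bovine serum. Enzalutamide is a drug used against prostate cancer. The labels name 1 hairpin group per target and do not say how many hairpin sequences or clones stand behind it, nor whether its 3 libraries stem from different cultures, and the extraction protocol speaks of pooled RNA. Each p-value is thus set against library-to-library spread that could be technical.

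Ligands of this family are secreted as dimers and bind pairs of type I and type II receptor kinases on the cell surface. The receptors phosphorylate SMAD2 and SMAD3 in the TGF-beta and activin branch, or SMAD1, SMAD5 and SMAD9 in the BMP branch, and these enter the nucleus with SMAD4. Secreted antagonists such as noggin and the chordins hold BMPs away from their receptors, and the ID genes are well-known direct targets of BMP-activated SMADs.

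Each gene was measured in RPKM, its reads scaled to gene length and library size, and libraries held 17360455 to 23930217 reads. PDGFC itself was at 3.0, 2.43 and 2.52 RPKM in shPDGFC, against 8.19, 8.71 and 8.13 RPKM in shNC, so the targeted mRNA was lower in each knockdown library than in any control library. Of 12 luminal prostate and LNCaP markers, 9 reached 1 RPKM in at least 3 libraries. KLK3, the gene for prostate-specific antigen, never exceeded 0.0298 RPKM and KLK2 never exceeded 0.0194 RPKM, and TMPRSS2 stayed under 1 RPKM in every library. KLK3 and KLK2, which define LNCaP as a secretory luminal line, were thus at or near 0. Of 8 fibroblast markers 5 stayed under 1 RPKM in every library, with THY1 at 0, and the summed level of the 8 was 15.3 to 15.7 RPKM in shPDGFC and 19.3 to 19.6 RPKM in shNC. The expressed ones went both ways: LUM fell to 7.96 RPKM in shPDGFC against 11.3 RPKM in shNC (limma, adjusted p = 0.000531), COL3A1 rose to 1.46 RPKM against 0.883 RPKM (adjusted p = 0.0133), and COL1A1 averaged 5.14 and 6.01 RPKM in shPDGFC and shNC (adjusted p = 0.0502). The summed luminal markers were at 188.2 to 201.4 RPKM in shPDGFC and 173.3 to 175.9 RPKM in shNC. All 5 endothelial markers and 5 of 6 leukocyte markers stayed under 1 RPKM in every library. Mitochondrial genes took 4.18% to 4.66% of reads in shPDGFC and 3.73% to 4.06% in shNC. The part of the luminal-marker, fibroblast-marker and mitochondrial differences in the results below was not tested. In bulk RNA, fewer cells of a type and less RNA per cell cannot be told apart.

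Across the family, 14 members changed between the groups, 7 upward and 7 downward, and all but CHRDL1 by less than 1.5-fold. A gene was tested where it reached 1 RPKM in at least 3 libraries, which 47 of the 56 members did, and it was called changed where limma's Benjamini-Hochberg adjusted p over all 15337 tested genes was under 0.05. The 14 called members were 29.8% of those tested, the same share as the 29.8% of all tested genes, which is near the background and no result about the family. Rises made up 14.9% of tested members against 14.2% of all genes, and falls 14.9% against 15.6%. The median log2 change was 0.07 over the tested members and -0.01 over all genes tested. Every log2 change here is a difference of log2(RPKM + 1) values, so that of a low gene is understated. Under upper-quartile scaling of the libraries, 4 members rose and 10 fell, where 30% of all genes were called (12.4% higher and 17.6% lower). With limma-voom on the reads recovered from the RPKM values, which weights each gene by its read number, 17 members rose and 11 fell. Together they were 59.6% of the 47, against 37.6% of all genes (17.7% higher and 19.9% lower). The match to the background thus held in the limma fit as reported and not with limma-voom.

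**Figure D1:**
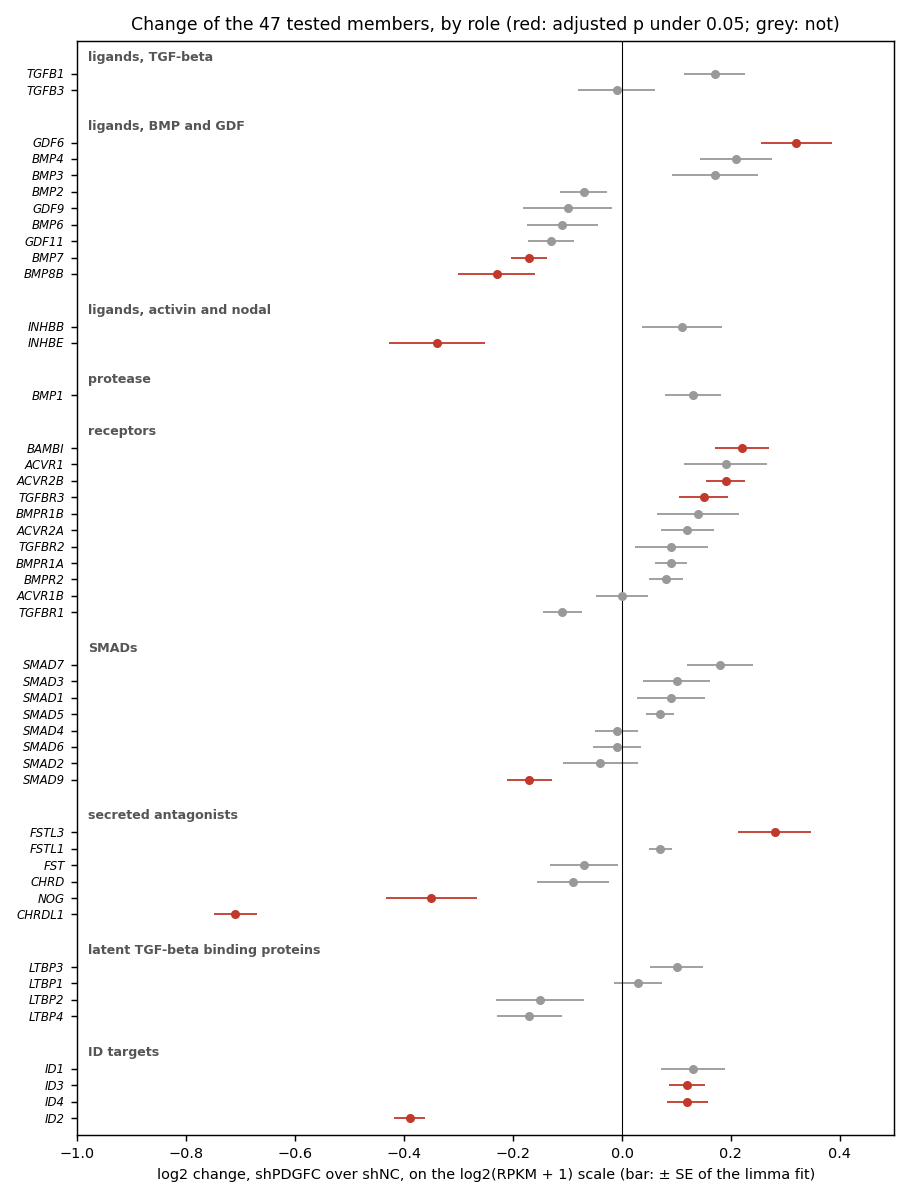
Log2 change (horizontal axis, shPDGFC over shNC on the log2(RPKM + 1) scale) of the 47 tested members, grouped by role, with bars of ± 1 SE from the limma fit. The members past the adjusted p threshold of 0.05 are red, and CHRDL1 at -0.71 lies farther from 0 than any other member.

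Calls differed in how far they depended on single libraries and on the settings. CHRDL1, ID2, BMP7, ACVR2B and GDF6 kept their calls under each of 13 alternatives that tested them (GDF6 was not tested where a mean of 5 RPKM was required). The other 9 called members lost their call under at least 1 alternative, as the plot of calls by setting shows, and those that hung on single libraries are given with each gene. Among the 33 tested members that did not pass, 15 passed under at least 1 alternative and 18 under none.

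**Figure D2:**
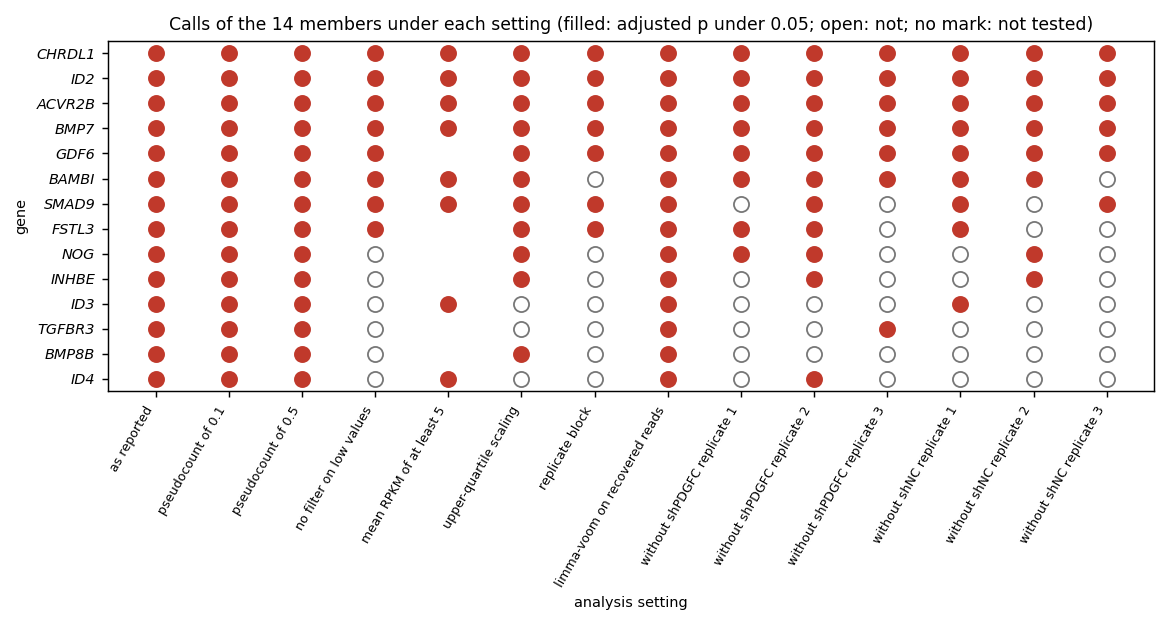
Calls of the 14 members (rows) as reported and under 13 alternative settings (columns), where a filled circle is an adjusted p under 0.05, an open circle one at or above it, and no mark means not tested. The top 5 rows are filled wherever they were tested, and BMP8B is open without any 1 of the 6 libraries.

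The promoter windows of 4 members are printed here because 3 of them (CHRDL1, ACVR2B and ID2) kept their calls throughout and the fourth, ID3, is a close relative of ID2 that changed the other way. Each runs from 250 bases before to 50 bases after the annotated start (RefSeq, GRCh38.p14), 5′ to 3′ on the gene's strand, with the 4-base SMAD-binding box GTCT and its reverse complement AGAC in capitals. The windows lie at chrX:110795768-110796067 (minus strand), chr3:38453640-38453939 (plus strand), chr2:8681806-8682105 (plus strand) and chr1:23559452-23559751 (minus strand).
CHRDL1: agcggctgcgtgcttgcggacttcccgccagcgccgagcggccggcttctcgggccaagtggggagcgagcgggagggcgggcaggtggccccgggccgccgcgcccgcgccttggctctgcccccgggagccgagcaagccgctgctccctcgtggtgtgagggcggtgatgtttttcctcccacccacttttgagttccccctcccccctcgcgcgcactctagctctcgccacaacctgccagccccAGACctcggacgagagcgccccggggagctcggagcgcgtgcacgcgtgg
ACVR2B: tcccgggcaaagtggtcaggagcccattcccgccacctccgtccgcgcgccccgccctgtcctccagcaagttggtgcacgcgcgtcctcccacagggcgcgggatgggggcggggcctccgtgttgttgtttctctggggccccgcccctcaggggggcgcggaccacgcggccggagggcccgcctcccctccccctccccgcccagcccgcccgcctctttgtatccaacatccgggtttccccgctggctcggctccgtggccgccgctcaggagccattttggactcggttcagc
ID2: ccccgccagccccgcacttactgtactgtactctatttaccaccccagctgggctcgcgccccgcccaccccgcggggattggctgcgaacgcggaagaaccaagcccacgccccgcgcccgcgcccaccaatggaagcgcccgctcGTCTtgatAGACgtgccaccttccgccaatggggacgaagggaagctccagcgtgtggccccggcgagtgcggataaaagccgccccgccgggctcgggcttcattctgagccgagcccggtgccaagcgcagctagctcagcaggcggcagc
ID3: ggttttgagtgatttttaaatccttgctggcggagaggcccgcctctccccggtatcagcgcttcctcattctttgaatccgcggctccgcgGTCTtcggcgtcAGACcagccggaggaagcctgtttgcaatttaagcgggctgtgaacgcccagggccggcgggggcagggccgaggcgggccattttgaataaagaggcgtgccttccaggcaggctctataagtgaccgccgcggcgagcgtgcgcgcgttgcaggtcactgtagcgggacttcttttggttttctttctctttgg
The box occurred once in the CHRDL1 window, in neither orientation in that of ACVR2B, and at 2 places each in those of ID2 and ID3. Of 35116 promoter windows of this length, 84% held the box on either strand, so its presence sets none of these genes apart. The GC-rich palindrome GGCGCC, also sought because SMADs bind GC-rich elements, was in none of the 4 windows and in 19.2% of all windows. In both ID windows GTCT was followed by AGAC on the printed strand, after 4 bases in ID2 and after 8 bases in ID3. An arrangement with at most 8 bases between them was in 2.49% of all windows, and it was looked for after the ID sequences had been seen. The match is a description of letters, and binding was not measured. Of the 56 members, 46 matched this promoter table.

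Among the secreted antagonists, 1 rose and 2 fell of 6 tested, where 14.2% of all genes rose and 15.6% fell, and the largest change of any tested member was here. With limma-voom 2 rose and 2 fell, and with the replicate block or without shNC replicate 1 it was 1 each. Without shNC replicate 3 or shPDGFC replicate 3, 0 rose and 1 fell, and without shNC replicate 2, 0 rose and 2 fell. CHRDL1 encodes chordin-like 1, a secreted protein that binds BMPs, and lies on chromosome X (GRCh38, 110673856 to 110795819). It was at 19.5, 20.2 and 20.4 RPKM in shPDGFC, against 31.7, 34.9 and 33.5 RPKM in shNC. The knockdown libraries lay within 1 RPKM of each other and far under the lowest control library. With SDs of 0.47 RPKM in shPDGFC and 1.6 RPKM in shNC (n = 3 each), the ratio of means was 0.6, with a log2 change of -0.71 ± 0.039 (SE; limma, adjusted p = 0.000207), on 4518 reads in shPDGFC and 8363 in shNC. Of all 4571 genes called, 98.7% changed by less. The summed fibroblast markers were lower in shPDGFC as well (15.3 to 15.7 RPKM, against 19.3 to 19.6 RPKM in shNC), although COL3A1 of that list rose, and their part in the falls of CHRDL1 and NOG was not tested.

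NOG, the gene for noggin, a high-affinity BMP antagonist (chromosome 17, 56593699 to 56595590), was at 3.55, 3.8 and 3.14 RPKM in shPDGFC, against 5.13, 4.15 and 4.99 RPKM in shNC. The groups did not overlap, but shNC replicate 2 stood close to the knockdown range. NOG fell by 0.35 on the log2 scale (SE 0.084; limma, adjusted p = 0.019), and the call ended when shNC 1, shNC 3 or shPDGFC 3 was left out (adjusted p 0.0551 to 0.0635). FSTL3, a follistatin-like protein that binds activins and myostatin (chromosome 19, 676365 to 683399), went the other way. It was at 4.33, 4.27 and 4.63 RPKM in shPDGFC, against 3.86, 3.28 and 3.2 RPKM in shNC, and each knockdown library exceeded each control. FSTL3 rose by a log2 change of 0.28 ± 0.067 (SE; limma, adjusted p = 0.0185), a call that needed each of shNC 2, shNC 3 and shPDGFC 3 (adjusted p 0.0555 to 0.0604).

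The most abundant antagonist-like gene, FSTL1, a secreted glycoprotein related to follistatin, averaged 38.6 ± 0.38 RPKM in shPDGFC and 36.8 ± 0.33 RPKM in shNC (SD, n = 3 each). Its difference was small beside its level and did not pass (limma, adjusted p = 0.054), although the groups did not overlap, and it passed with limma-voom (adjusted p = 0.0427). CHRD, the founding chordin, averaged 1.88 and 2.07 RPKM in shPDGFC and shNC (adjusted p = 0.343). FST, which encodes the activin-binding follistatin, averaged 2.68 and 2.87 RPKM in shPDGFC and shNC (adjusted p = 0.413). CHRDL2 and GREM1, which encode further BMP antagonists, were under the level tested, on 5 and 9 reads in shPDGFC and 9 and 15 reads in shNC.

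**Figure D3:**
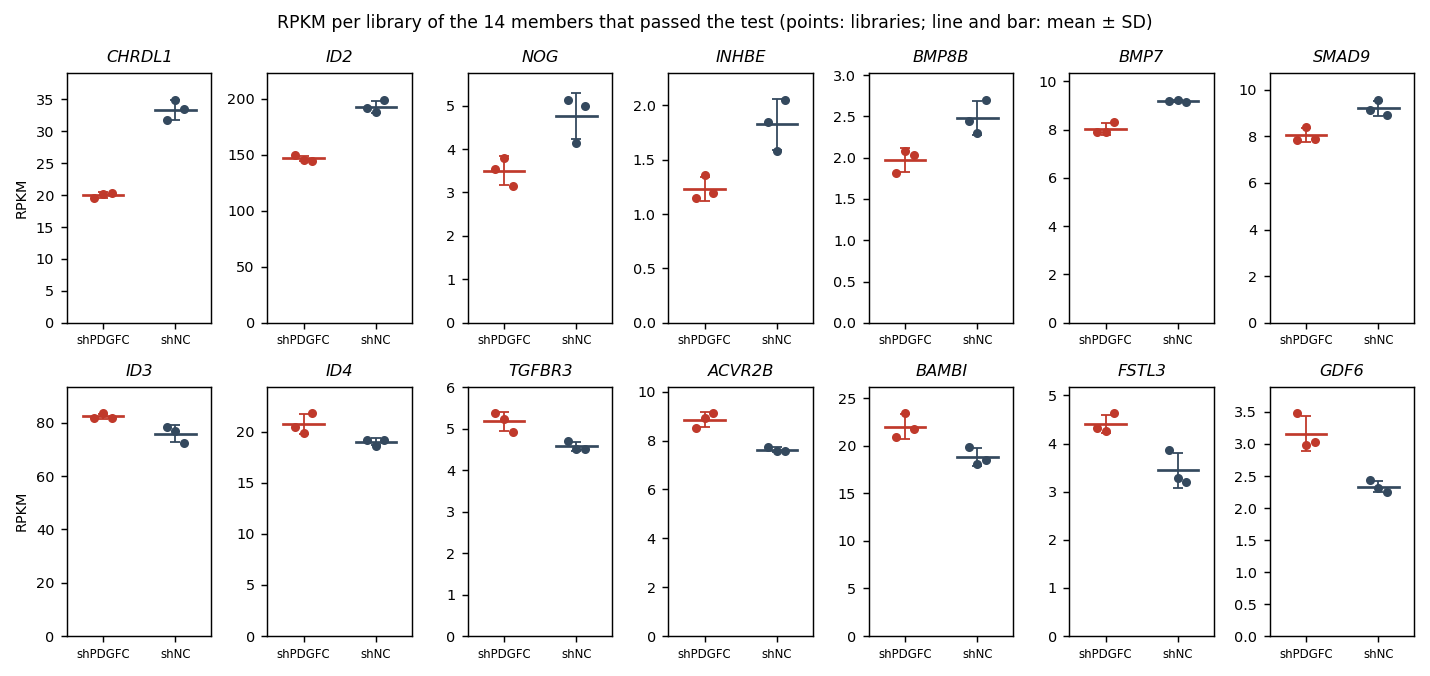
RPKM per library (vertical axis, from 0) of the 14 members past the threshold, with shPDGFC in red on the left and shNC in dark blue on the right, points for libraries and lines with bars for mean ± SD (n = 3). The groups do not overlap in any panel, and CHRDL1 shows the widest relative gap, with 19.5 to 20.4 RPKM in shPDGFC and 31.7 to 34.9 RPKM in shNC.

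The groups did not overlap in 28 of the 47 tested members, where 46.8% of all tested genes showed no overlap. Of 13 tested ligands 1 rose and 3 fell, with a median log2 change of -0.07, where 14.2% of all genes rose and 15.6% fell. The balance was not kept: 2 ligands rose and 1 fell without shNC replicate 3 or with the replicate block, 4 rose and 4 fell with limma-voom, and 1 rose and 1 fell without shNC replicate 1, shPDGFC replicate 1 or shPDGFC replicate 3.

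BMP7 is a BMP of kidney and bone development (chromosome 20, 57168748 to 57266629). It was at 7.89, 7.89 and 8.32 RPKM in shPDGFC, against 9.18, 9.23 and 9.16 RPKM in shNC, with the control libraries closely bunched above the highest knockdown library. BMP7 fell by 0.17 on the log2 scale (SE 0.033; limma, adjusted p = 0.00863). GDF6, a relative of the BMPs with roles in joint and eye formation (chromosome 8, 96142330 to 96160792), was the ligand that rose, at 3.48, 2.98 and 3.03 RPKM in shPDGFC, against 2.43, 2.32 and 2.25 RPKM in shNC. The groups were well apart, and the log2 change was 0.32 ± 0.065 (SE; limma, adjusted p = 0.0109), a ratio of means of 1.35.

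INHBE encodes the inhibin beta E chain, a subunit of activin E that is best known from liver (chromosome 12, 57452323 to 57459280). It was at 1.15, 1.36 and 1.19 RPKM in shPDGFC, against 1.85, 1.58 and 2.05 RPKM in shNC, and fell by 0.34 on the log2 scale (SE 0.088; limma, adjusted p = 0.0262). It rested on 178 reads in shPDGFC and 296 in shNC, and the call ended when shNC 1, shNC 3, shPDGFC 1 or shPDGFC 3 was left out (adjusted p 0.0689 to 0.0873). BMP8B, a BMP known from germ cells and brown fat in mice (chromosome 1, 39757182 to 39788861), was at 1.81, 2.08 and 2.03 RPKM in shPDGFC, against 2.44, 2.3 and 2.7 RPKM in shNC. It fell by 0.23 on the log2 scale (SE 0.071; limma, adjusted p = 0.0487), and leaving out any 1 of the 6 libraries ended the call (adjusted p 0.0562 to 0.148). BMP8B is uncertain for a further reason, since its close copy BMP8A (0.159 and 0.221 RPKM in shPDGFC and shNC) can share its reads and PPIE on the opposite strand (16.5 and 16.6 RPKM) overlaps 80 of its exon bases.

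Several better expressed ligands lay near the threshold. BMP4, which patterns mesoderm and epithelium, was at 7.25, 6.99 and 7.16 RPKM in shPDGFC, against 5.32, 6.38 and 6.45 RPKM in shNC, higher in every knockdown library (log2 change 0.21 ± 0.066, SE; limma, adjusted p = 0.0503). Without shNC replicate 1, its lowest control, the BMP4 change was 0.13 (adjusted p = 0.0658). TGFB1, the principal TGF-beta ligand, was at 10.7, 10.8 and 11.6 RPKM in shPDGFC, against 9.06, 9.59 and 10.5 RPKM in shNC (adjusted p = 0.0609). TGFB1 passed without shNC replicate 3 (adjusted p = 0.0281), and HNRNPUL1 on the opposite strand (62.4 and 63.3 RPKM in shPDGFC and shNC) shares 215 of its exon bases. GDF11, a relative of myostatin, averaged 8.19 and 9.05 RPKM in shPDGFC and shNC (log2 change -0.13 ± 0.042, SE; limma, adjusted p = 0.0571) and passed without shNC replicate 2 (adjusted p = 0.0323). SARNP on the opposite strand, at 1.33 and 0.924 RPKM, overlaps 386 exon bases of GDF11. With limma-voom BMP4, TGFB1 and GDF11 all passed (adjusted p = 0.0163, 0.0124 and 0.00273).

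BMP2, the most abundant ligand mRNA of the list, was at 12.6, 12.3 and 11.2 RPKM in shPDGFC, against 12.7, 12.5 and 12.8 RPKM in shNC, and its groups overlapped (limma, adjusted p = 0.251). BMP6 (3.15 and 3.47 RPKM in shPDGFC and shNC, adjusted p = 0.251), TGFB3 (2.95 and 2.97 RPKM, adjusted p = 0.907), the activin subunit gene INHBB (2.33 and 2.08 RPKM, adjusted p = 0.276) and the oocyte factor GDF9 (1.19 and 1.34 RPKM, adjusted p = 0.397) overlapped between the groups as well. GDF9 shares 306 exon bases with UQCRQ on the opposite strand, which averaged 40.9 RPKM in shPDGFC and 47.1 RPKM in shNC and fell (adjusted p = 0.0306). BMP3, a BMP that restrains bone formation, averaged 1.22 and 0.971 RPKM in shPDGFC and shNC (adjusted p = 0.14) and was the single tested member with libraries under 1 RPKM, all of them controls. It passed with limma-voom (adjusted p = 0.0139). BMP1, which despite its name is a metalloprotease that processes procollagen and cleaves chordin, averaged 5.11 and 4.58 RPKM in shPDGFC and shNC (adjusted p = 0.0966).

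Ligand genes below the level tested were TGFB2, BMP5, GDF5, INHBA, NODAL, LEFTY1 and LEFTY2. INHBA, the subunit of activin A, was at 0.534, 0.609 and 0.534 RPKM in shPDGFC, against 0.429, 0.38 and 0.418 RPKM in shNC, without overlap. TGFB2 overlapped, at 0.265 to 0.456 RPKM in shPDGFC and 0.313 to 0.355 RPKM in shNC. The embryonic signal NODAL had 9 reads in shPDGFC and 13 in shNC, and in the shPDGFC library listed at 0 the limit that 3 reads allow is 0.0725 RPKM. Its inhibitors LEFTY1 and LEFTY2, near-identical genes that can share reads, had 3 and 4 reads in shPDGFC and 2 and 7 in shNC. Limits and read numbers cover counting error only. With no filter on low values, INHBA had a log2 change of 0.15 (limma, adjusted p = 0.132) and TGFB2 one of 0.02 (adjusted p = 0.881), and neither passed.

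**Figure D4:**
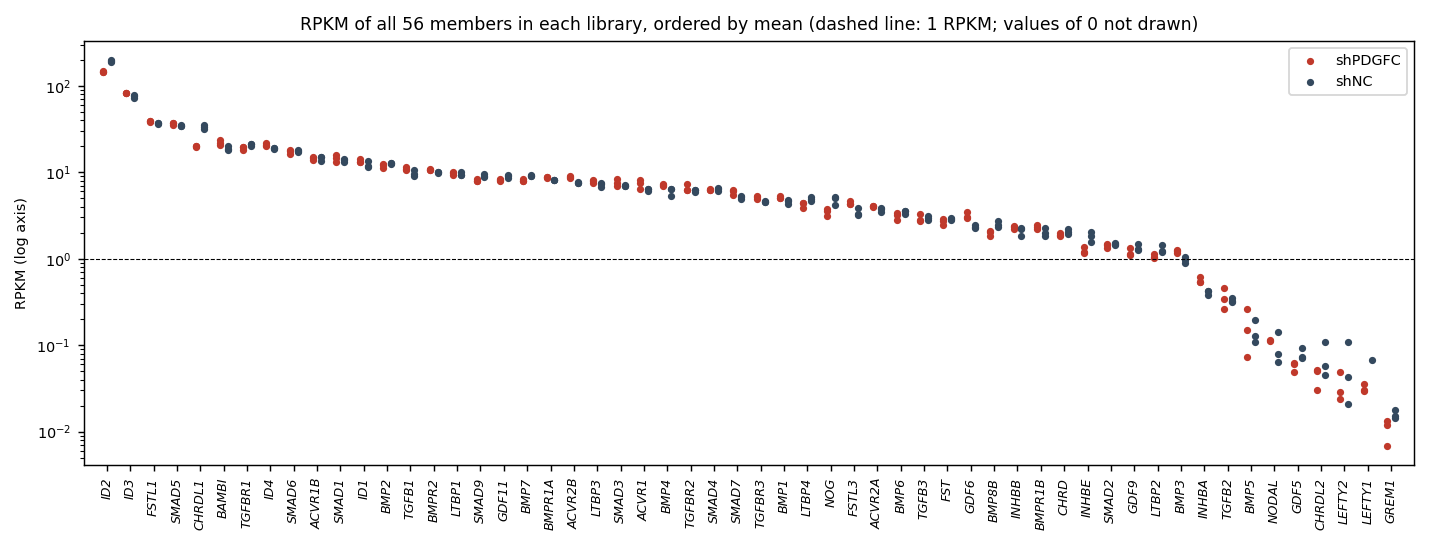
RPKM of all 56 members in each library (log axis, values of 0 not drawn), ordered by mean over the 6 libraries, with shPDGFC in red on the left of each gene and shNC in dark blue on the right. ID2 and ID3 lead, 9 members lie under the dashed line at 1 RPKM, and GREM1 is lowest.

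Receptor transcripts were all expressed. Of 11 tested, 3 rose and 0 fell, together 27.3%, where 29.8% of all genes were called and 14.2% rose, so the number called was near the background. The median log2 change was 0.12 (-0.01 over all genes tested), and 9 of the 11 had a positive change. Of the 11, 8 were not called, and the signs are not read as a rise of the role. With the replicate block 1 receptor rose, and without shNC replicate 3, 1 rose and 1 fell. TGFBR1 was lower at an unadjusted p of 0.016 and fell under 4 alternatives, limma-voom among them. ACVR2B, a type II receptor for activins and related ligands (chromosome 3, 38453851 to 38493142), was at 8.53, 8.93 and 9.12 RPKM in shPDGFC, against 7.74, 7.56 and 7.56 RPKM in shNC. The lowest knockdown library exceeded the highest control, and ACVR2B rose by a log2 change of 0.19 ± 0.036 (SE; limma, adjusted p = 0.00753).

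BAMBI encodes a membrane pseudoreceptor without a kinase domain that dampens TGF-beta and BMP signals and is itself induced by them (chromosome 10, 28677342 to 28682939). It was at 20.9, 23.4 and 21.7 RPKM in shPDGFC, against 19.9, 18.1 and 18.5 RPKM in shNC, and rose by a log2 change of 0.22 ± 0.049 (SE; limma, adjusted p = 0.0162). Its lowest knockdown library lay near its highest control, and without shNC replicate 3 the adjusted p was 0.0534. TGFBR3, the co-receptor betaglycan that presents TGF-beta to the signalling receptors (chromosome 1, 91680343 to 91906335), was at 5.37, 5.24 and 4.92 RPKM in shPDGFC, against 4.69, 4.5 and 4.52 RPKM in shNC. It rose by a log2 change of 0.15 ± 0.045 (SE; limma, adjusted p = 0.0423), and leaving out any library except shPDGFC replicate 3 ended the call (adjusted p 0.0728 to 0.114).

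The other receptors did not pass. TGFBR1, the type I receptor of TGF-beta and the most abundant receptor kinase of the list, averaged 19.1 ± 0.7 RPKM in shPDGFC and 20.7 ± 0.65 RPKM in shNC (SD, n = 3 each), each knockdown library under each control (log2 change -0.11 ± 0.036, SE; limma, adjusted p = 0.0525). It passed without shNC replicate 3 (adjusted p = 0.0483), with upper-quartile scaling (0.0335), with a mean of at least 5 RPKM required (0.0371) and with limma-voom (0.00491). TGFBR2, its type II partner, averaged 6.57 and 6.12 RPKM in shPDGFC and shNC (adjusted p = 0.376). The BMP receptors did not pass, with BMPR1A at 8.69 and 8.12 RPKM in shPDGFC and shNC (adjusted p = 0.0622), BMPR1B at 2.33 and 2.03 RPKM (0.213) and BMPR2 at 10.6 and 9.98 RPKM (0.0869). BMPR1A and BMPR2 were higher in every knockdown library and passed with limma-voom (adjusted p = 0.0483 and 0.0201). ACVR1, a type I receptor for BMPs and activins, averaged 7.34 and 6.28 RPKM in shPDGFC and shNC (adjusted p = 0.0981), and it passed without shPDGFC replicate 2, its lowest knockdown library (adjusted p = 0.0156). ACVR2A averaged 4.07 and 3.67 RPKM in shPDGFC and shNC (adjusted p = 0.104), and ORC4 on the opposite strand, which overlaps 430 of its exon bases, rose to 10.3 RPKM in shPDGFC against 9.15 RPKM in shNC (0.0321). ACVR1B, the type I receptor of activin, averaged 14.5 and 14.6 RPKM in shPDGFC and shNC (adjusted p = 0.957).

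Of the 8 SMAD genes, which encode the signal transducers and their inhibitors, 1 changed (12.5%, where 29.8% of all genes were called). A count this small is not read as a result about the role. SMAD9, the least abundant transducer of the BMP branch (chromosome 13, 36844831 to 36920765), was at 7.86, 8.39 and 7.88 RPKM in shPDGFC, against 9.14, 9.56 and 8.9 RPKM in shNC, with no overlap. It fell by 0.17 on the log2 scale (SE 0.041; limma, adjusted p = 0.0178), and the call ended when shNC 2, shPDGFC 1 or shPDGFC 3 was left out (adjusted p 0.0522 to 0.0568). The other transducers of that branch were SMAD5, with 36.5 ± 1.0 RPKM in shPDGFC and 34.7 ± 0.23 RPKM in shNC (SD, n = 3 each; limma, adjusted p = 0.0832), and SMAD1, with 14.6 and 13.7 RPKM (0.314). SMAD5 passed without shPDGFC replicate 2 (adjusted p = 0.0399) and with limma-voom (0.0349), in the direction opposite to SMAD9.

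In the TGF-beta and activin branch SMAD2 averaged 1.42 and 1.49 RPKM in shPDGFC and shNC (adjusted p = 0.708) and SMAD3 7.61 and 7.02 RPKM (0.256). SMAD2 held 2863 reads in shPDGFC and 3356 in shNC, and SMAD3 2871 and 2960. The lower RPKM of SMAD2 thus goes with a longer length in the scaling and not with few reads. SMAD4, the partner common to both branches, averaged 6.31 ± 0.12 RPKM in shPDGFC and 6.35 ± 0.22 RPKM in shNC (SD, n = 3 each; limma, adjusted p = 0.913). Of the inhibitory SMADs, which both branches induce as feedback, SMAD7 was at 5.4, 6.14 and 6.32 RPKM in shPDGFC, against 5.2, 5.36 and 4.89 RPKM in shNC (adjusted p = 0.0682). SMAD7 was higher in every knockdown library and passed without shPDGFC replicate 1 (adjusted p = 0.0224) and with limma-voom (0.0129). SMAD6 averaged 17.5 and 17.6 RPKM in shPDGFC and shNC (adjusted p = 0.875).

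Several of the latent TGF-beta binding proteins anchor newly made TGF-beta in the matrix. The 4 tested gave 0 calls in the limma fit as reported, where 29.8% of all genes were called. A count this small is not read as a result about the role. LTBP4 alone had an unadjusted limma p under 0.05 (0.02). LTBP4 averaged 4.23 and 4.9 RPKM in shPDGFC and shNC (adjusted p = 0.0604) and LTBP2 1.07 and 1.29 RPKM (0.216). LTBP3, at 7.82 and 7.21 RPKM in shPDGFC and shNC (adjusted p = 0.139), and LTBP1, at 9.78 and 9.59 RPKM (0.699), had changes of the other sign. LTBP2, LTBP3 and LTBP4 passed with limma-voom (adjusted p = 0.0282, 0.0479 and 0.0114). LTBP4 also passed, as a fall, with upper-quartile scaling.

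The ID genes, which encode helix-loop-helix proteins that block DNA binding by their partners, split. ID2, the most abundant of all members (chromosome 2, 8678845 to 8684453), fell, whereas ID3 and ID4 rose slightly. ID2 was at 149.7, 145.8 and 144.9 RPKM in shPDGFC, against 191.9, 188.5 and 199.0 RPKM in shNC. The gap between the groups was far wider than the spread within either. Its mean of 146.8 ± 2.5 RPKM in shPDGFC and 193.1 ± 5.3 RPKM in shNC (SD, n = 3 each) gave a log2 change of -0.39 ± 0.028 (SE; limma, adjusted p = 0.000356), on 11122 and 16369 reads. The antisense gene ID2-AS1, which overlaps 38 exon bases of ID2, was at 2.91 RPKM in shPDGFC against 4.03 RPKM in shNC (log2 change -0.36; limma, adjusted p = 0.00687). Reads of the far more abundant ID2 over the shared bases could count for ID2-AS1. Its fall may therefore not be a separate change, which was not tested.

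ID3 (chromosome 1, 23557918 to 23559794) was at 81.7, 83.6 and 81.9 RPKM in shPDGFC, against 78.6, 76.8 and 72.4 RPKM in shNC, a log2 change of 0.12 ± 0.033 (SE; limma, adjusted p = 0.0347). ID4 (chromosome 6, 19837386 to 19840684) was at 20.5, 19.9 and 21.8 RPKM in shPDGFC, against 19.2, 18.6 and 19.2 RPKM in shNC, a log2 change of 0.12 ± 0.037 (SE; limma, adjusted p = 0.049). Both calls were fragile. That of ID3 was lost without any library except shNC replicate 1 (adjusted p 0.0631 to 0.0877), that of ID4 without any except shPDGFC replicate 2 (0.0848 to 0.128), and both under upper-quartile scaling (0.0541 and 0.0568). ID1 averaged 13.5 ± 0.68 RPKM in shPDGFC and 12.3 ± 0.99 RPKM in shNC (SD, n = 3 each; limma, adjusted p = 0.14), and passed without shNC replicate 2, its highest control (adjusted p = 0.032). ID2 was the single ID gene with a negative change.

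Of 109 further genes of the pathway, 69 were tested, of which 19 rose (27.5%, where 14.2% of all genes did) and 6 fell (8.7%, where 15.6% did), with a median log2 change of 0.04. Without shNC replicate 1, 12 rose and 4 fell. These lists were chosen with earlier results of these data known. Their shares beside those of all genes are therefore descriptive and no independent support for a pathway change. TGF-beta and activin target genes, in which 7 of 20 rose (35.0%, where 14.2% of all genes did) and 0 fell (15.6% of all genes) with a median of 0.10, were led by CCN2, a matricellular protein also induced by YAP, at 3.1 and 1.53 RPKM in shPDGFC and shNC (log2 change 0.70; limma, adjusted p = 0.000766). In that list 1 gene fell at an unadjusted p under 0.05 and 1 fell with limma-voom. Without shNC replicate 1, 4 of the list rose, and with no filter on low values 3. Among 8 BMP target genes beside the IDs 3 rose (37.5%, where 14.2% of all genes did) and 1 fell (12.5%, where 15.6% did). MSX2, a homeobox gene, rose to 39.6 RPKM in shPDGFC against 33.5 RPKM in shNC (adjusted p = 0.0012), and HEY1, which NOTCH also induces, fell (log2 change -0.23 ± 0.029, SE; adjusted p = 0.00187). Without shNC replicate 3, 1 BMP target rose.

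Extracellular regulators changed in both directions, with 4 higher and 2 lower in shPDGFC of 11 tested, together 54.5% where 29.8% of all genes were called. That list too was chosen with earlier results known, so its share is descriptive only. The number lower was 1 without shPDGFC replicate 2 or 3 or any 1 of the shNC libraries, and the number higher was then 3 to 5. FBN1, the fibrillin that tethers latent TGF-beta complexes, rose to 10.5 ± 0.27 RPKM in shPDGFC against 7.38 ± 0.17 RPKM in shNC (SD, n = 3 each; limma, adjusted p = 0.000407), and PCSK6, a convertase that activates family ligands, fell to 10.3 RPKM against 12.6 RPKM (adjusted p = 0.00629). Of 23 intracellular regulators 5 rose and 2 fell, together 30.4%, which is near the background of 29.8%. Without shNC replicate 1, 3 rose and 1 fell, without shNC replicate 3, 3 rose and 2 fell, and without shNC replicate 2 or shPDGFC replicate 3, 4 rose and 1 fell. SKI, a repressor of SMAD activity, rose to 16.8 RPKM in shPDGFC against 13.1 RPKM in shNC (adjusted p = 0.00118), and HIPK2, a kinase that binds SMAD cofactors, fell (log2 change -0.19 ± 0.038, SE; adjusted p = 0.00962). Of 3 other ligands tested, GDF7 fell to 4.75 RPKM in shPDGFC against 5.94 RPKM in shNC (adjusted p = 0.00695). Of 4 other receptors and co-receptors tested, 0 were called by limma, 0 had an unadjusted p under 0.05 and 0 were called by limma-voom. Over all genes, 29.8% were called by limma and 37.6% by limma-voom. The counts of these 2 short lists are not read as results about them.

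**Figure D5:**
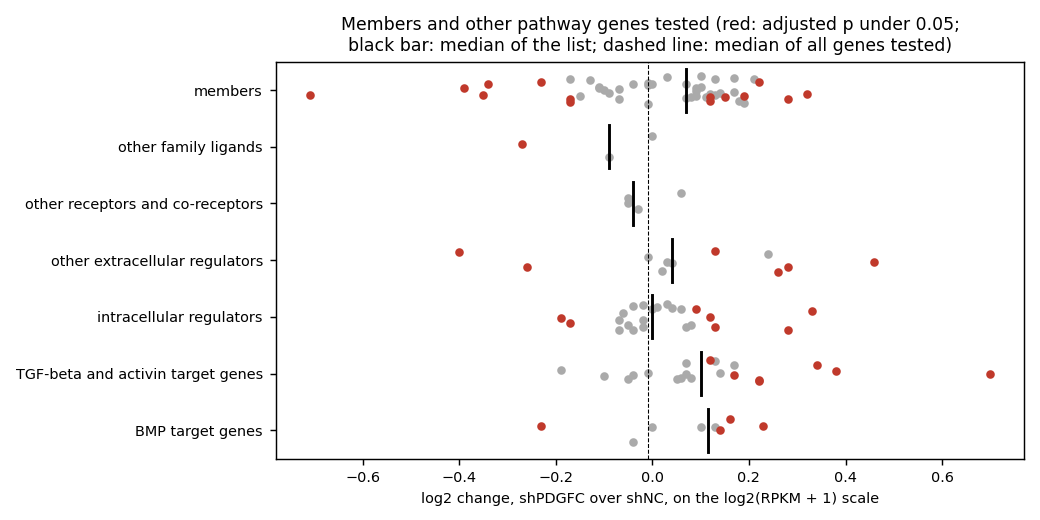
Log2 change (horizontal axis, shPDGFC over shNC on the log2(RPKM + 1) scale) of each tested member and each tested gene of 6 further pathway lists (rows), red where the adjusted p was under 0.05, with a black bar at the median of each list and a dashed line at -0.01, the median of all genes tested. The medians of the target gene lists lie right of that line, and CCN2 at 0.70 is the farthest point to the right.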

How the data were processed

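The authors deposited 1 table of 60664 human Ensembl genes by 6 libraries, whose header names no unit (a table of raw counts named in the labels was not used here). The deposited values were read as RPKM, scaled by the authors to gene length and library total, because the values of each of the 37040 genes with any value gave whole reads (tolerance 1e-07) once multiplied by 1 whole-number total per library and a length. Recovered reads summed to 99.46% to 99.47% of those totals; a common factor in a gene's reads cannot be seen, so read numbers are the smallest possible except in genes with under 20 reads. Aligner, counter, annotation and strandedness: not given in the sources used here. Reads of overlapping genes may therefore be mixed. GRCm38 and mm10, which are mouse builds, appear in the submitters' processing notes, but 0 identifiers are mouse. Symbols came from a gene name table (60463 identifiers matched) and coordinates from GENCODE 29 on GRCh38.

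Genes with at least 1 RPKM in at least 3 libraries (15337) entered limma (version 3.58.1, R version 4.3.3), fitted to log2(RPKM + 1) without a block and with an intensity trend in the variance prior, and p-values were adjusted by Benjamini-Hochberg over all of them. On simulated reads for 15138 genes this fit called 72% of 50 genes changed 1.25-fold and 92% of 50 changed 1.5-fold. The changed genes were few, were drawn from those with more reads, and all genes shared a common dispersion. These shares therefore need not hold for members near 1 RPKM. Same-group libraries differed by more than sampling noise (chi-square per degree of freedom 1.5 to 2.6). The members and lists were chosen with earlier results of these data known. All members are named. Of the further pathway lists, the gene with the smallest p in each direction is named. The exact permutation test cannot pass 0.05 with 3 against 3 libraries and was not used.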

Additional observations from a re-analysis of the deposited data

How the results depend on the processing

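The number of members that rose was 7 as reported, 17 with limma-voom on recovered reads, and 4 with no filter on low values, with a replicate block or with upper-quartile scaling. The number that fell was 7, against 11 with limma-voom and 4 with no filter or with the replicate block. The call rate over all genes moved with the setting too. As reported, 14.2% of all genes rose and 15.6% fell, against 17.7% and 19.9% with limma-voom. With the replicate block 10.6% rose and 12% fell, and with upper-quartile scaling 12.4% and 17.6%. With no filter, 1776 of 29151 genes rose and 1967 fell, beside 4 and 4 of 56 members. Without 1 library, 3 to 7 members rose and 3 to 6 fell. Over all genes, 1524 to 1841 then rose and 1653 to 2026 fell, of 15056 to 15202 tested. All 14 calls were shared with limma-voom and with pseudocounts of 0.1 and 0.5. The other pathway genes called numbered 25, with 16 to 22 when 1 library was left out, and those that rose 19, with 12 to 16; those that fell and the calls over all genes stayed within 1.5 times of their number. The sign of 4 members that did not pass turned when 1 library was left out, with log2 changes between -0.078 and 0.023 for TGFB3, -0.048 and 0.029 for ACVR1B, -0.031 and 0.0092 for SMAD4 and -0.043 and 0.034 for SMAD6. The cause was not tested. Same-numbered libraries of the 2 groups did not deviate together (correlations -0.101, -0.111 and -0.018), and differently numbered ones correlated at -0.007 to 0.108. With 3 libraries per group, these values cannot show whether same-numbered libraries were handled together. With the replicate block 3469 genes were called in all. Genes under about 1 RPKM are limited by depth.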
